A study of Oryza sativa with 8 samples.

Results

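In leaves of b83OX-15, a rice line overexpressing the bZIP transcription factor gene OsbZIP83, 114 genes stood apart from the leaves of the lines b83OX-13 and b83OX-19 and of the non-transformant (NT). They are called members here, and the lines are called 13, 15 and 19. A member had a mean of at least 5 reads per 1000000 (RPM) over the 4 leaf libraries and was at least 2-fold from each of the other 3 leaf libraries in the same direction, on the scale of log2(RPM + 1). The rule found 114 of 13515 genes at that mean level, or 0.844%, among 46120 genes in the table. Of these, 109 were higher in line 15 leaves (0.807%) and 5 were lower (0.037%). The members were chosen by these leaf values, which are therefore given as a description, and each group is 1 library, so nothing was tested. The mean of 5 RPM includes line 15 leaves, so a gene low in the other leaves can reach it through its line 15 value. Shares of gene lists are therefore a description as well.

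The rice was of the cultivar Tsukinohikari, grown in hydroponics with sufficient iron. Roots and leaves were sampled from lines 15, 13 and 19, which all overexpress OsbZIP83, and from NT, with 1 sample for each of the 8 combinations. The labels name no promoter for the transgene and do not give the number of plants behind a sample, so no spread within a line is known. Transcripts were counted by Lasy-Seq, which reads cDNA near the polyadenylated end, so a value measures a gene's share of transcripts in its library.

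Many members belong to the families by which plants answer microbes. Pathogenesis-related (PR) proteins are mostly small secreted or vacuolar proteins, among them chitinases and glucanases that cut fungal cell walls, thaumatin-like proteins and proteinase inhibitors, and their transcripts are induced by pathogens and by hormones such as salicylic acid and jasmonate. WRKY transcription factors bind promoters of such genes and include both activators and repressors. Several rice PR genes are also abundant in roots of healthy plants.

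The leaf libraries held about 22600000 to 35700000 reads by the value of their smallest step, which was 0.0280 to 0.0442 RPM, and line 15 leaves held about 29400000. OsbZIP83 (Os12g0152900, chromosome 12) was at 100.5 RPM in line 15 leaves, 75.3 and 94.98 RPM in leaves of lines 13 and 19, and 1.62 RPM in NT leaves, so it did not set line 15 apart from the other lines. Markers of leaf tissue summed to 88522 RPM over 9 genes in line 15 leaves, against 89157, 75741 and 93604 RPM in leaves of line 13, line 19 and NT. Root markers summed to 4.06 RPM over 11 genes, with 9 listed at 0, in line 15 leaves, and to 4.33, 0.0118 and 0.124 RPM in the others. Markers of vascular tissue summed to 302 RPM over 9 genes in line 15 leaves, against 367, 224 and 587 RPM in leaves of line 13, line 19 and NT, and markers of dividing cells to 28.3 RPM over 9 genes, against 34.1, 33.5 and 29.5 RPM. Their part in the results was not tested. In bulk tissue, fewer cells of a type and less RNA per cell cannot be told apart. The deposited values looked as if 0.134% to 0.142% of a gene's total over all 8 libraries had been taken off each library, a step no source used here describes, so a value of 0 is given as listed at 0.

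**Figure D1:**
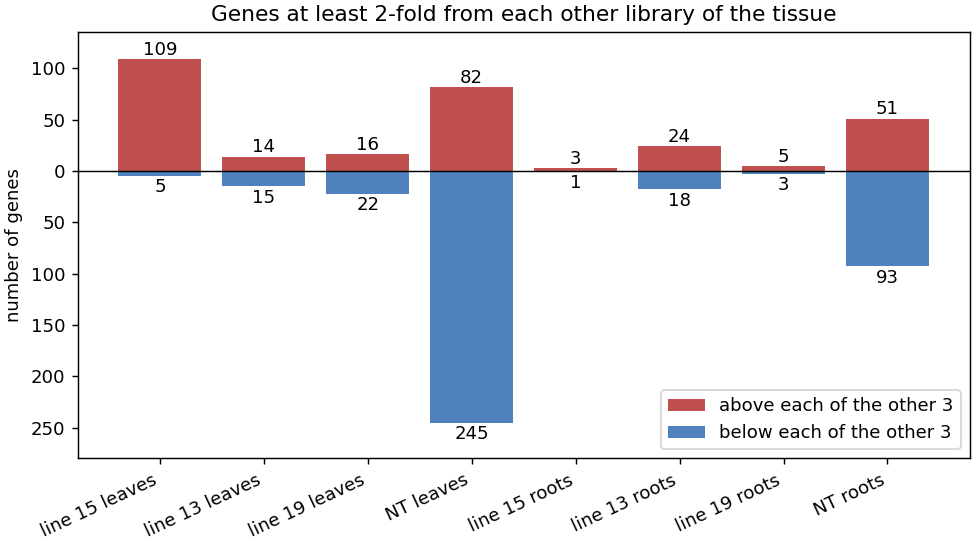
Number of genes (vertical axis) at least 2-fold above (red, upward bars) or below (blue, downward bars) each of the other 3 libraries of the same tissue, for each library in turn (horizontal axis). Line 15 leaves have 109 genes above and 5 below, whereas line 15 roots have 3 above and 1 below.

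The same rule was applied to every other library to show how many genes any single library sets apart. Leaves of line 13 had 29 such genes (0.215%), of which 14 were above (0.104%), and leaves of line 19 had 38 (0.281%), of which 16 were above (0.118%). NT leaves had 327 (2.42%), of which 245 were below the 3 lines (1.81%). Line 15 leaves thus had more genes apart than leaves of either other line, and nearly all lay above. In roots, line 15 had 4 of 15332 genes (0.0261%), line 13 had 42 (0.274%), line 19 had 8 (0.0522%) and NT had 144 (0.939%).

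Among the 109 higher members the median level was 32.6 RPM in line 15 leaves, against 7.30, 8.73 and 5.03 RPM in leaves of line 13, line 19 and NT. Line 15 exceeded the median of the other 3 leaf libraries by a median of 1.68 on the log2 scale, with a range of 1.01 to 5.15 and a median over all 13515 genes of -0.01. The distance to the nearest other leaf library, called the distance from here on and given on the log2(RPM + 1) scale, was at least 4-fold in 20 members, at least 8-fold in 5 and at least 16-fold in 1. Line 19 leaves were the nearest to line 15 in 68 members, line 13 leaves in 34 and NT leaves in 7, beside 56%, 21% and 23% of all genes in which that library was the highest of the 3. NT leaves were the lowest of those 3 libraries, or tied for it, in 90 members, and in 52.9% of all genes. Line 15 minus NT had a median of 2.40, line 13 minus NT 0.61 and line 19 minus NT 0.80. The same medians over all genes were 0.07, 0.05 and 0.19, and all of them share the 1 NT library. The number of members depended on the settings: the rule found 205 genes, 172 of them higher, without line 19 leaves, 219 genes with a minimum mean of 1 RPM, and 72 with 5 RPM added before the logarithm.

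**Figure D2:**
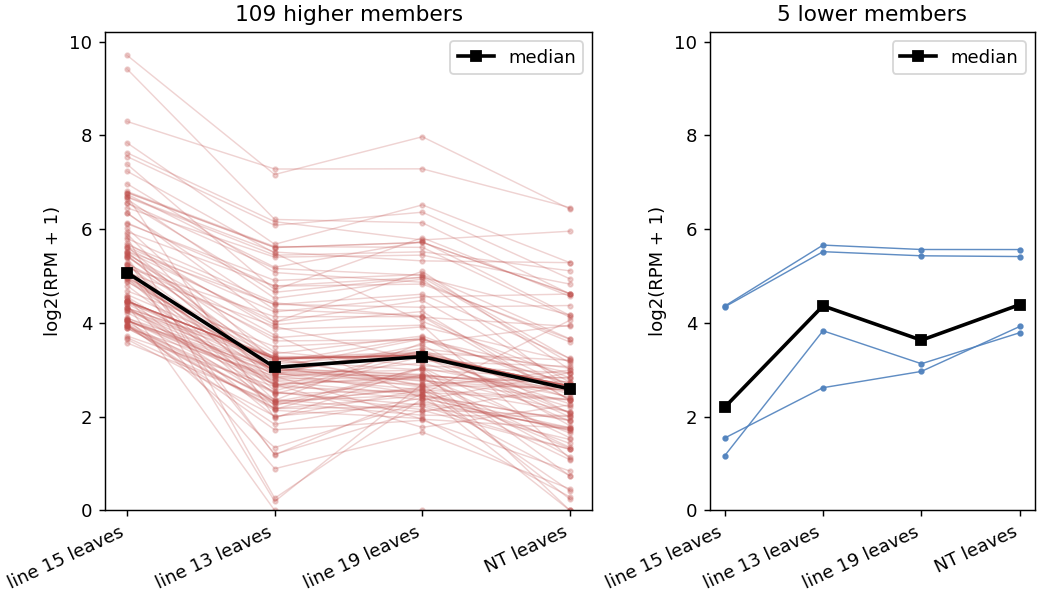
Expression as log2(RPM + 1) (vertical axis) of each of the 109 higher members (left, red) and 5 lower members (right, blue) in the 4 leaf libraries (horizontal axis), with 1 thin line per gene and the median in black. In the left panel the median is 32.6 RPM in line 15 leaves and is lowest in NT leaves, at 5.03 RPM.

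The PR proteins, chitinases, glucanases and proteinase inhibitors formed the role group with the largest median distance. All 17 of these members were higher in line 15 leaves, with a median distance of 2.04 and a range of 1.01 to 4.40. PR5 (Os12g0628600, chromosome 12), a thaumatin-like protein, had 682 RPM in line 15 leaves, 72.9 and 69.3 RPM in leaves of lines 13 and 19, and 23.6 RPM in NT leaves, a distance of 3.21. Its roots had 17.0 RPM in line 15, 61.8 and 15.9 RPM in lines 13 and 19, and 26.1 RPM in NT. Line 15 leaves therefore held more PR5 transcript than any of the 4 root libraries.

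OsPR1 (Os07g0129300, chromosome 7), annotated as similar to PR1a, had 20.05 RPM in line 15 leaves and was listed at 0 in the leaves of line 13, line 19 and NT. Its roots were at 629 RPM in line 15, 666 RPM in line 13, 693 RPM in line 19 and 517 RPM in NT. Line 15 leaves alone had a value above 0 among the leaves, while all roots were high and close together. Its distance of 4.40 is set by the 1 RPM added before the logarithm. With the estimated deducted reads added back, its leaves were at 22.7 RPM in line 15, 2.31 RPM in line 13, 3.27 RPM in line 19 and 3.68 RPM in NT, a distance of 2.34. PR1B (Os01g0382000, chromosome 1), a PR1 protein of the basic type, had 43.1 RPM in line 15 leaves, 12.4 and 4.25 RPM in leaves of lines 13 and 19, and 2.25 RPM in NT leaves. All 4 roots were lower than line 15 leaves for PR1B, at 6.71, 8.46 and 7.12 RPM in lines 15, 13 and 19 and 10.1 RPM in NT.

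A run of 3 PR10 genes lies within 6 annotated loci on chromosome 12. PR10 proteins are intracellular and resemble ribonucleases, and the rice gene PBZ1 (PR10A) was named for its induction by the compound probenazole. RSOsPR10 (Os12g0555000) had 103 RPM in line 15 leaves, 2.93 and 7.20 RPM in leaves of lines 13 and 19, and 0.664 RPM in NT leaves, a distance of 3.67. PR10B (Os12g0555200) had 36.9 RPM in line 15 leaves, 6.498 and 5.88 RPM in leaves of lines 13 and 19, and 4.11 RPM in NT leaves, a distance of 2.34. PR10A (Os12g0555500) had 197 RPM in line 15 leaves, 70.5 and 53.6 RPM in leaves of lines 13 and 19, and 61.1 RPM in NT leaves, a distance of 1.47. The other 3 leaf libraries lay close to each other for PR10A and PR10B, and line 19 was the second highest for RSOsPR10. In roots the highest library for all 3 genes was line 13, with 407, 328 and 53.0 RPM for RSOsPR10, PR10B and PR10A. Roots of line 15 had 250 RPM of RSOsPR10, 156 RPM of PR10B and 18.7 RPM of PR10A, and NT roots had 117, 96.1 and 25.8 RPM. JIOSPR10 (Os03g0300400), a jasmonate-inducible PR10 on chromosome 3, was the most strongly root-borne of the group, at 16.2 RPM in line 15 leaves, 5.77, 4.46 and 2.40 RPM in leaves of line 13, line 19 and NT, and 1017 to 1443 RPM in the roots. Its distance of 1.35 became 0.96, under the threshold, with the estimated deducted reads added back.

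The chitinases were CHT1, CHT8, CHT11 and C10728. CHT1 (Os06g0726200) had 44.5 RPM in line 15 leaves, 7.75 and 9.35 RPM in leaves of lines 13 and 19, and 3.22 RPM in NT leaves, a distance of 2.13. CHT8 (Os10g0542900) had 93.3 RPM in line 15 leaves, 34.8 and 31.3 RPM in leaves of lines 13 and 19, and 8.40 RPM in NT leaves. CHT11 (Os03g0132900) differed in tissue, with 68.3 RPM in line 15 leaves and 3.72 to 8.48 RPM in the roots. The acidic class III chitinase C10728 (Os01g0660200) reached 15.6 RPM in line 15 leaves and had a distance of 1.37. Line 15 leaves were thus highest of the leaves for all 4 by construction, and lines 13 and 19 lay between line 15 and NT for 3 of them. The beta-1,3-glucanases were Gns10, OsPR2 and Os07g0539900, with distances of 2.05, 2.04 and 2.03. Gns10 (Os01g0713200) had 79.8 RPM in line 15 leaves, 18.5 and 16.8 RPM in leaves of lines 13 and 19, and 5.08 RPM in NT leaves. The osmotin-like TLP (Os03g0663500) had 42.6 RPM in line 15 leaves, 6.66 and 6.15 RPM in leaves of lines 13 and 19, and 2.14 RPM in NT leaves. Proteinase inhibitors block digestive enzymes of insects and microbes. The type II inhibitor Os03g0734300 had 33.9 RPM in line 15 leaves, 1.29 and 3.41 RPM in leaves of lines 13 and 19, and 1.47 RPM in NT leaves, a distance of 2.99. The Bowman-Birk inhibitor RBBI3-1 (Os01g0124200) was at the edge of the rule, with a distance of 1.01 as deposited and 0.89 with the deducted reads added back.

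**Figure D3:**
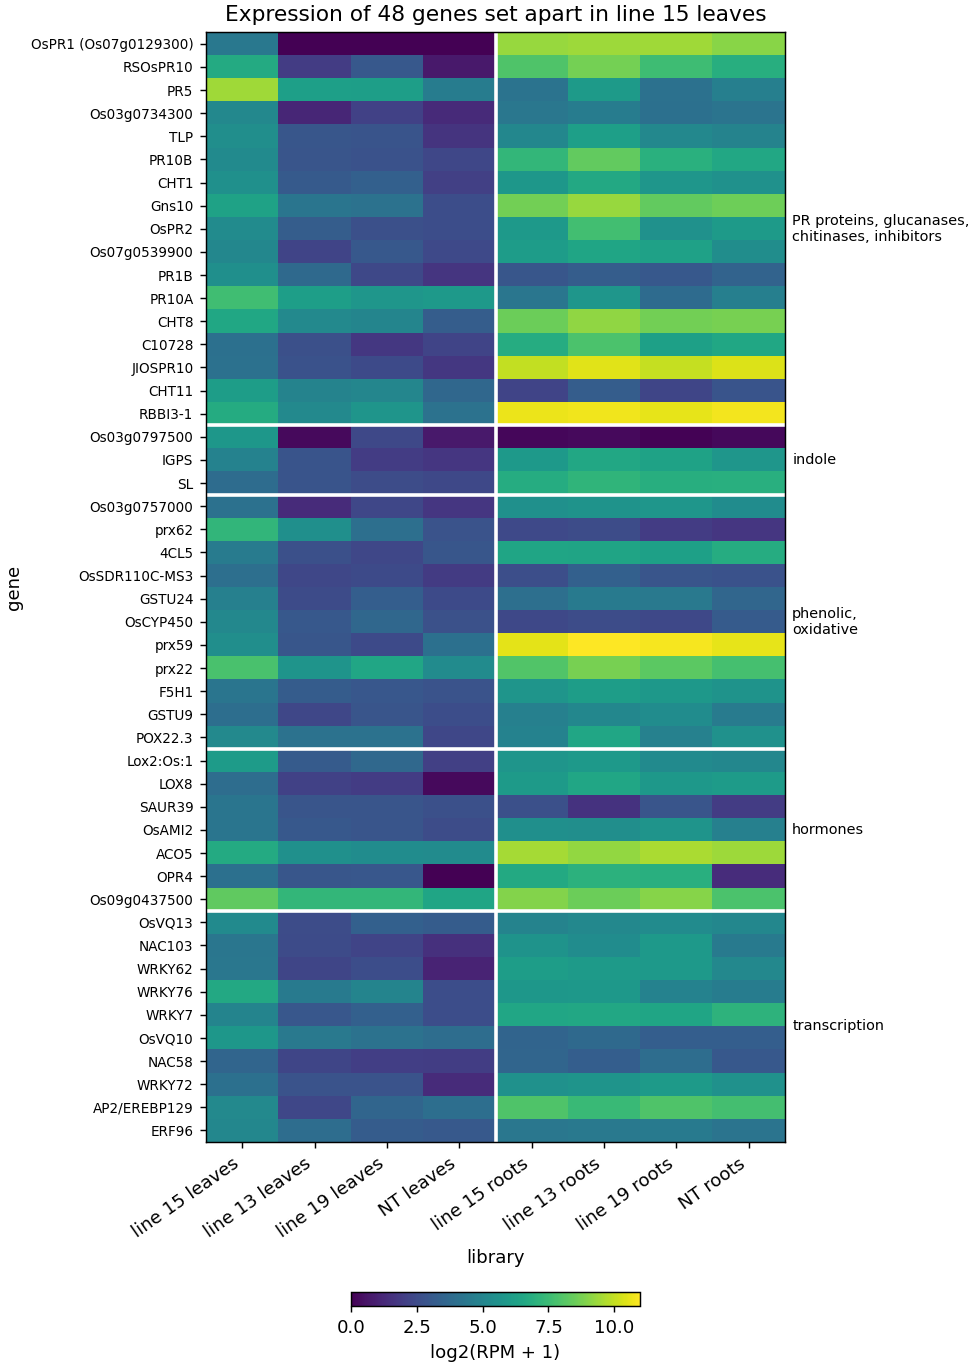
Expression as log2(RPM + 1) (colour scale) of the higher members of 5 role groups (rows, white lines between groups) in the 4 leaf and 4 root libraries (columns). The first column, line 15 leaves, is brighter than the other leaf columns, and for most rows the root columns are as bright or brighter, as for JIOSPR10 at 1017 to 1443 RPM in roots.

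The indole and tryptamine enzymes were represented by 3 higher members with a median distance of 2.03. Indole-3-glycerol phosphate is the step at which the tryptophan pathway can branch into free indole, and tryptamine is the precursor of serotonin in rice leaves. The gene annotated as indole-3-glycerol phosphate lyase (Os03g0797500) had 56.0 RPM in line 15 leaves, 0.198 and 4.23 RPM in leaves of lines 13 and 19, and 0.672 RPM in NT leaves, a distance of 3.45. It was nearly silent in roots, at 0.143, 0.202 and 0.0529 RPM in lines 15, 13 and 19 and 0.190 RPM in NT. IGPS (Os09g0255400), the indole-3-glycerol phosphate synthase, had 28.7 RPM in line 15 leaves, 6.28 and 2.85 RPM in leaves of lines 13 and 19, and 2.37 RPM in NT leaves. The lyase gene was a leaf gene of line 15 and to a lesser extent line 19, whereas IGPS stood at 52.9 to 96.0 RPM in every root library. SL (Os12g0268000), the cytochrome P450 of the Sekiguchi lesion locus that converts tryptamine to serotonin, had 13.8 RPM in line 15 leaves, 6.295 and 4.95 RPM in leaves of lines 13 and 19, and 4.19 RPM in NT leaves, with a distance of 1.02 that became 0.98 with the deducted reads added back.

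Enzymes of phenolic, oxidative and conjugating reactions made up 11 members, all higher, with a median distance of 1.45. The class III peroxidases, which use hydrogen peroxide to cross-link phenolics in the cell wall, were prx62, prx22, prx59 and POX22.3. Peroxidase prx62 (Os04g0688500) had 149.8 RPM in line 15 leaves, 43.9 and 15.35 RPM in leaves of lines 13 and 19, and 6.10 RPM in NT leaves. It was low in roots, at 2.38 to 4.89 RPM. Its neighbour prx59 (Os04g0688100), within 4 loci on chromosome 4, had 42.3 RPM in line 15 leaves, 6.66 and 4.58 RPM in leaves of lines 13 and 19, and 15.7 RPM in NT leaves, against 1485 to 2025 RPM in roots. The pair thus had opposite tissue patterns, and with the deducted reads added back the distance of prx59 was 0.94. Peroxidase prx22 (Os01g0963000) had 228 RPM in line 15 leaves, 50.2 and 90.6 RPM in leaves of lines 13 and 19, and 38.0 RPM in NT leaves, and POX22.3 had a distance of 1.04. Of the enzymes that supply monolignols for lignin, 4CL5, the 4-coumarate:CoA ligase, was at 22.5 RPM in line 15 leaves against 5.46, 4.12 and 6.67 RPM in leaves of line 13, line 19 and NT. F5H1, the coniferaldehyde 5-hydroxylase, was at 18.3 RPM in line 15 leaves against 8.11, 6.997 and 6.06 RPM in the others in the same order. The glutathione S-transferases GSTU24 and GSTU9, within 9 loci on chromosome 10, had distances of 1.51 and 1.08. The glycosyltransferase Os03g0757000, the dehydrogenase OsSDR110C-MS3 and the P450 OsCYP450 had distances of 1.77, 1.54 and 1.45.

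Hormone enzymes and responses gave 7 higher members with a median distance of 1.26. Lipoxygenases start the jasmonate and green-leaf-volatile pathways in the chloroplast. Lox2:Os:1 (Os08g0508800) had 63.8 RPM in line 15 leaves, 7.96 and 11.9 RPM in leaves of lines 13 and 19, and 3.19 RPM in NT leaves, a distance of 2.33. LOX8 (Os08g0509100), the next locus, had 14.4 RPM in line 15 leaves, 3.40 and 2.90 RPM in leaves of lines 13 and 19, and 0.223 RPM in NT leaves, a distance of 1.81. For both genes line 15 was the highest of the leaves and NT the lowest, while lines 13 and 19 changed places between them. OPR4 (Os06g0215900), a 12-oxophytodienoate reductase gene, had 15.6 RPM in line 15 leaves, 6.62 and 6.97 RPM in leaves of lines 13 and 19, and was listed at 0 in NT leaves. NT also stood apart from the lines for OPR4 in roots, with 100.4, 132 and 121 RPM in lines 15, 13 and 19 and 1.67 RPM in NT. ACO5, an ACC oxidase for ethylene, SAUR39, a repressor of auxin synthesis and transport, the amidase OsAMI2 and the dormancy and auxin associated Os09g0437500 had distances of 1.18, 1.36, 1.26 and 1.01. Of 11 measured genes in a list of jasmonate synthesis and signalling, LOX8 met the rule (9.09%, beside 0.807% of all genes). LOX8 reached the mean of 5 RPM only through line 15 leaves. Line 15 leaves were the highest of the leaves in 6 of the 11 (18.9% of all genes), and the list's median difference was 0.23. Of 10 measured genes in a list for auxin, gibberellin, cytokinin and ethylene, SAUR39 met the rule (10%). In that list line 15 leaves were the highest of the leaves in 1 gene and the lowest in 3, beside 2551 and 2710 of all 13515 genes. Its median difference was -0.31.

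Transcription factors and their partners numbered 11, of which 10 were higher, with a median distance of 1.49. WRKY76 and WRKY62, adjacent on chromosome 9, are known in rice as repressors of defence whose transcripts are themselves induced by pathogens. WRKY76 (Os09g0417600) had 98.8 RPM in line 15 leaves, 22.04 and 29.6 RPM in leaves of lines 13 and 19, and 5.02 RPM in NT leaves. WRKY62 (Os09g0417800) had 19.2 RPM in line 15 leaves, 3.96 and 5.04 RPM in leaves of lines 13 and 19, and 1.12 RPM in NT leaves. For both genes the order was line 15, line 19, line 13 and NT. WRKY7 and WRKY72 had distances of 1.60 and 1.24, and of 29 measured WRKY genes these 4 were members (13.8%, beside 0.807% of all genes). WRKY62 and WRKY72 reached the mean of 5 RPM only through line 15 leaves. The VQ proteins, which bind WRKY factors, included OsVQ13 (Os03g0676400) at 36.9 RPM in line 15 leaves against 4.87, 9.24 and 8.21 RPM in leaves of line 13, line 19 and NT, and OsVQ10 with a distance of 1.37. NAC103 and NAC58, of which NAC58 is also called OsNAP and is known as a senescence regulator in rice, had distances of 1.81 and 1.27. AP2/EREBP129 had 34.5 RPM in line 15 leaves against 4.10, 10.9 and 14.5 RPM in leaves of line 13, line 19 and NT, and Os10g0562900, which carries the symbol ERF96 but is annotated as a non-coding transcript, had 1.15.

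Signalling genes numbered 18, of which 17 were higher, with a median distance of 1.15. They included 6 loci of the RING ubiquitin ligase EL5 on chromosome 2, an elicitor-responsive gene, whose values were identical at 21.1 RPM in line 15 leaves and 8.44, 8.94 and 5.28 RPM in leaves of line 13, line 19 and NT. Reads could not be assigned among these copies, so they are 1 observation rather than 6. The counts of 18 and 17 and the median of 1.15 hold all 6, and 1.15 is also the distance of each copy. The kinase gene Os06g0581500 had 33.8 RPM in line 15 leaves, 5.24 and 9.69 RPM in leaves of lines 13 and 19, and 4.24 RPM in NT leaves, and had 0.0840 to 0.238 RPM in roots. It lies with the uncharacterised members Os06g0579100 and Os06g0586000 within 28 loci of chromosome 6, and their distances were 1.70, 1.75 and 1.89. The wall-associated kinase WAK112 and the cytoplasmic kinase RLCK101 had distances of 1.55 and 1.49. RIR1B (Os10g0569400), a gene of induced resistance in rice, had 186 RPM in line 15 leaves, 66.8 and 81.2 RPM in leaves of lines 13 and 19, and 29.7 RPM in NT leaves. The elicitor-responsive RPP17, the harpin-induced domain gene OsSDS1, the calmodulin-binding CaMBP and the remaining 4 higher genes of this group had distances of 1.03 to 1.26.

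Transporters numbered 11, of which 10 were higher, with a median distance of 1.31. The ammonium transporter AMT3;2 (Os03g0838400) had 14.5 RPM in line 15 leaves, 2.29 and 2.80 RPM in leaves of lines 13 and 19, and 0.791 RPM in NT leaves, a distance of 2.03. AMT1;1, the main root ammonium transporter gene, had a distance of 1.05, or 0.98 with the deducted reads added back. The ABC transporters PDR5, PDR8 and ABCG22, of a family that exports secondary metabolites, had distances of 1.90, 1.75 and 1.46. The monosaccharide transporter OsMST3 (Os07g0106200) had 93.6 RPM in line 15 leaves, 24.2 and 30.4 RPM in leaves of lines 13 and 19, and 7.86 RPM in NT leaves. OsMST4, the potassium transporter OsHAK1 (Os04g0401700), the peptide transporter PTR3 and the zinc transporter ZIP2 had distances of 1.03 to 1.16. All 10 were above 10 RPM in every root library.

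Enzymes of degradation and of the cell surface were fewer. RCCR2 (Os10g0389300), annotated as a red chlorophyll catabolite reductase, and Osh69, an alkaline alpha-galactosidase known from senescing rice leaves, had distances of 1.51 and 1.23. Of 10 measured genes in a leaf senescence list, NAC58 and Osh69 were members (20%, beside 0.807% of all genes). NAC58 reached the mean of 5 RPM only through line 15 leaves. Line 15 leaves were the highest of the leaves in 4 of the 10 (18.9% of all genes), and the list's median difference was 0.25. Line 19 leaves were above line 15 leaves for NYC1, OsPAO, Osl2 and RCCR1. At the cell surface, OsHyPRP04 (Os03g0103200) had 835 RPM in line 15 leaves, 143 and 250 RPM in leaves of lines 13 and 19, and 85.1 RPM in NT leaves, the highest level of any member in that library. It encodes a hybrid proline-rich protein, as does the next locus qLTG-3-1(t) (Os03g0103300), a gene for germination in the cold, which had 166 RPM in line 15 leaves, 25.1 and 55.4 RPM in leaves of lines 13 and 19, and 22.7 RPM in NT leaves. The plantacyanin UCL12 had a distance of 1.96, and the serine-rich Os03g0322200, the peptidase Os02g0720600, the fatty acid elongase Os02g0205500 and the alcohol dehydrogenase Os03g0189400 had 1.08 to 1.45. The loci Os06g0176700 and Os06g0178500 had identical values and count as 1 observation. In total 8 members shared their values with another gene, and the 114 members hold 108 distinct sets of values.

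Members with no or little description numbered 22, all higher, with a median distance of 1.43 and a range of 1.01 to 3.07. Os04g0121800 had 58.7 RPM in line 15 leaves, 5.44 and 6.10 RPM in leaves of lines 13 and 19, and 1.21 RPM in NT leaves. Os06g0323100 had 41.1 RPM in line 15 leaves, 1.28 and 4.59 RPM in leaves of lines 13 and 19, and was listed at 0 in NT leaves. Both were high in every root library, at 57.5 to 103 RPM. Os01g0288700, annotated as a hypothetical gene on chromosome 1, had 40.8 RPM in line 15 leaves, 0.143 and 5.50 RPM in leaves of lines 13 and 19, and 0.181 RPM in NT leaves. Its roots were at 28.6 RPM in line 15, 0.105 RPM in line 13 and 11.7 RPM in line 19, and were listed at 0 in NT. Lines 15 and 19 thus had the transcript in both tissues and line 13 and NT had it at or near 0 in both. The next annotated loci on either side, Os01g0288600 and Os01g0288800, were at 0 and 0.0334 RPM in line 15 leaves.

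The 5 lower members had distances of -1.97 to -1.08. Os06g0109200, a predicted membrane protein of the DUF6 family, had 1.24 RPM in line 15 leaves, 13.2 and 7.75 RPM in leaves of lines 13 and 19, and 12.9 RPM in NT leaves. OsBURP17 (Os11g0170900), a BURP domain protein, had 3.59 RPM in line 15 leaves, 19.6 and 11.4 RPM in leaves of lines 13 and 19, and 19.97 RPM in NT leaves. GLR3.1 (Os04g0585200), a glutamate receptor-like channel, had 19.5 RPM in line 15 leaves, 49.6 and 46.4 RPM in leaves of lines 13 and 19, and 46.4 RPM in NT leaves. The other 3 leaf libraries were nearly equal for GLR3.1 and spread more widely for Os06g0109200 and OsBURP17. Os03g0117800, a fructosamine kinase domain protein with 19.3 RPM in line 15 leaves and 41.7 to 44.9 RPM in the others, and Os09g0248900, a Myb/SANT-like protein, both had a distance of -1.08. In roots 4 of the 5 were under 5 RPM on average, and Os09g0248900 stood at 38.9 to 54.7 RPM.

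The nearest genes on either side of the threshold were alike in size. Just inside, RBBI3-1, Os02g0536500 and OsCDAP1 had distances of 1.01. Just outside, the glutathione S-transferases GSTU12 and GSTF4 had 0.996 and 0.97 and OsbHLH006 had 0.995. Among lower genes, Os07g0115500, Os04g0188433 and ONAC007 lay just outside at -0.90, -0.90 and -0.89.

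The members were also counted in lists of genes by pathway or family. In a list of 15 measured defence genes, 9 were higher members (60%, beside 0.807% of all genes), line 15 leaves were the highest of the leaves in 14 (18.9% of all genes), and the list's median difference from the other leaves was 1.67. WRKY62, RSOsPR10 and JIOSPR10 reached the mean of 5 RPM only through line 15 leaves, so the share of this list is a description. The defence genes outside the rule were NH1, RBOHB, WRKY13, WRKY45, WRKY53 and PR4. WRKY45, an activator in the salicylic acid branch in rice, had 101 RPM in line 15 leaves, 57.4 and 47.3 RPM in leaves of lines 13 and 19, and 67.5 RPM in NT leaves. RBOHB, an NADPH oxidase, had 86.5 RPM in line 15 leaves, 82.7 and 89.7 RPM in leaves of lines 13 and 19, and 84.4 RPM in NT leaves. The members PR5 and RSOsPR10 had larger distances than WRKY45 and RBOHB, which the rule itself ensures for members against genes outside it. A list of chitinases and glucanases, drawn by words in the gene annotation, had 48 measured genes. Of these, 8 were members (16.7%), among them the thaumatin-like PR5, while the median of that list was -0.08. Peroxidases had 4 of 55 (7.27%), proteinase inhibitors 2 of 15 (13.3%), glutathione S-transferases 2 of 33 (6.06%), NAC factors 2 of 33 (6.06%), transporters 9 of 339 (2.65%) and protein kinases 3 of 309 (0.971%). The chitinase C10728, the inhibitor Os03g0734300, both NAC factors and AMT3;2 reached the mean of 5 RPM only through line 15 leaves. The shares of these lists are therefore a description too. No member was found among 304 ribosomal protein genes, 142 heat shock and chaperone genes, 47 light-harvesting and photosystem genes, 11 circadian clock genes, 8 phosphate starvation genes or 5 genes of iron uptake and regulation. At 0.807% of all genes, lists of this size would hold few or no members, so these counts of 0 show no difference from the background. Shifts under 2-fold are not seen by such counts. Of the 304 ribosomal protein genes, line 15 leaves were the highest of the leaves in 6 and the lowest in 114, beside 2551 and 2710 of all 13515 genes. The median difference of that list was small, at -0.07.

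Roots were not used to choose the members. Of the 109 higher members 92 had a mean of at least 5 RPM in roots. Line 15 roots were above each other root library in 8 of them (19.4% of all genes at 5 RPM in both tissues), below each in 18 (14.3%) and between the others in 66. The median difference of line 15 roots from the other roots was -0.03, beside 0.01 for all genes. Only Os01g0288700 was at least 2-fold above each other root library (0.0177% of all genes), with a distance of 1.22 in roots, and none was 2-fold below. Apart from Os01g0288700, no member that stood apart in line 15 leaves was thus 2-fold apart in roots of the same line. The difference between the tissues was not tested.

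**Figure D4:**
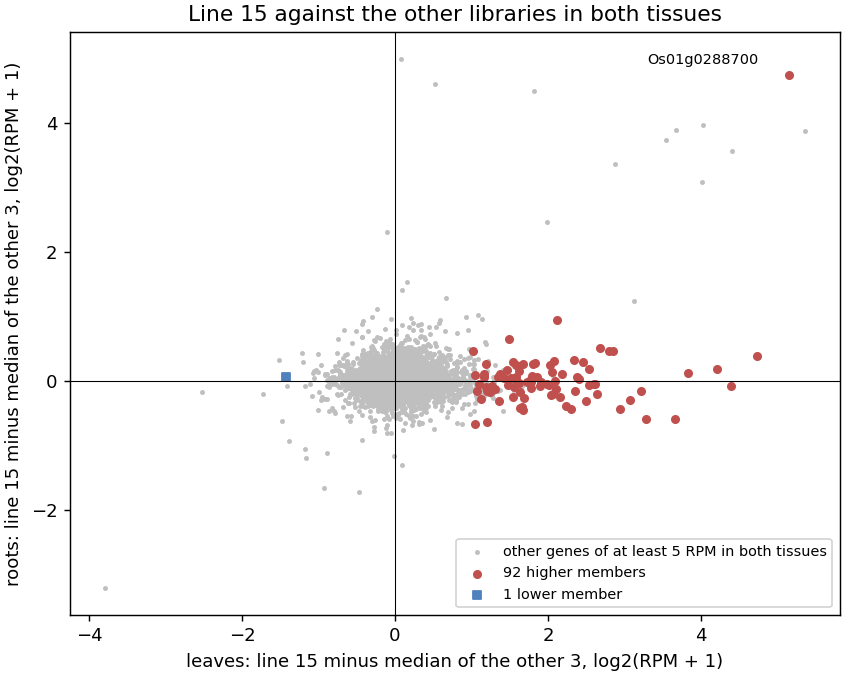
Line 15 minus the median of the other 3 libraries on log2(RPM + 1) in leaves (horizontal axis) and in roots (vertical axis), with 1 point per gene at a mean of at least 5 RPM in both tissues. The 92 higher members (red) lie to the right around a root difference of 0, except Os01g0288700 at the top, which had 28.6 RPM in line 15 roots.

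Among the root libraries it was line 13 that was most often the highest for these genes. Line 13 roots were highest in 46 of the 92 (21% of all genes), line 19 roots in 21 (27%), line 15 roots in 8 and NT roots in 17 (32.7%). Of the 17 PR proteins, chitinases, glucanases and inhibitors, line 13 roots were highest in 14. At least 2-fold above each other root library were 6 members (0.0706% of all genes at 5 RPM in both tissues), all of that group, namely PR5, TLP, PR10B, OsPR2, PR10A and C10728. OsPR2 (Os01g0940700) had 198 RPM in line 13 roots, 59.7 and 46.1 RPM in roots of lines 15 and 19, and 61.9 RPM in NT roots, whereas in leaves it had 37.9 RPM in line 15, 8.50 and 5.37 RPM in lines 13 and 19, and 5.14 RPM in NT. Different lines were thus the highest in the 2 tissues for these genes.

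Levels in roots were also set beside levels in leaves. The rule favours low leaf values in NT, since it asks for NT leaves at least 2-fold under line 15 leaves, so the comparison within NT describes the chosen genes and supports nothing about them. Within NT, roots exceeded leaves by a median of 2.97 on the log2 scale, beside 0.36 for all genes, and by more than 2-fold in 82 of 109 (29.1% of all genes), with 7 more than 2-fold below (22.7%). The lower members had a median of -3.63. Line 15 leaves stayed below line 15 roots in 66 of the 109 members and were above every root library in 38, among them PR5, PR1B, PR10A, prx62, WRKY76, Lox2:Os:1 and Os03g0797500. The shares of all genes were not computed for these counts, so the counts only describe the chosen genes. As a share of the level in line 15 roots, the level in line 15 leaves was lowest for JIOSPR10, at 1.60%, and had a median of 63.5% over the higher members, and the root markers summed to 0.0426% of their root level. The highest single root marker was at 2.56% of its root level, above JIOSPR10. With the estimated deducted reads added back, JIOSPR10 was at 2.099%, the root markers together at 0.437% and the highest single root marker at 3.03%. The higher members were chosen for high levels in line 15 leaves, so these shares are a description. With the reads added back, the root markers summed to 41.4 RPM in line 15 leaves, 35.2 and 43.7 RPM in leaves of lines 13 and 19, and 49.3 RPM in NT leaves, so line 15 leaves lay between the others.

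**Figure D5:**
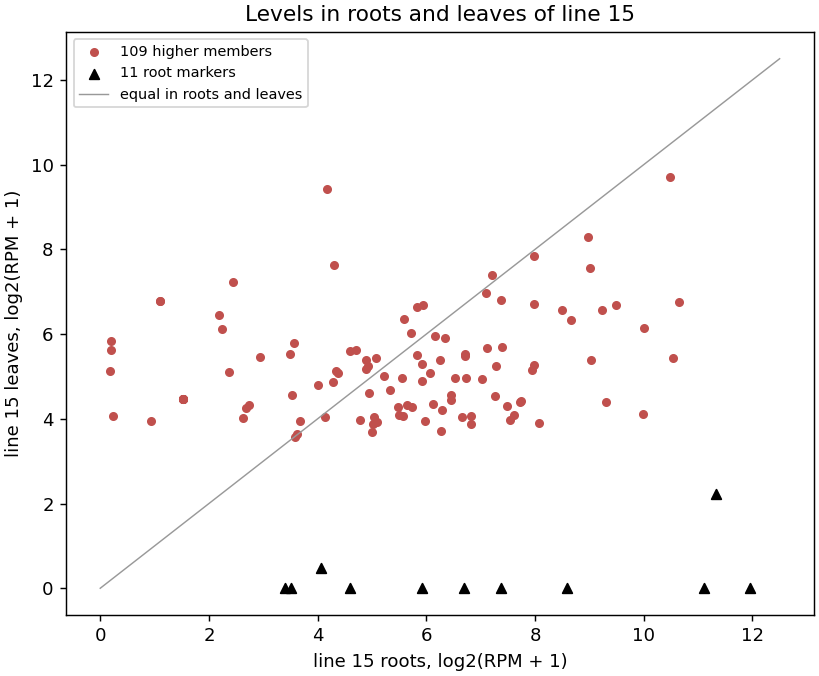
Expression as log2(RPM + 1) in line 15 roots (horizontal axis) and line 15 leaves (vertical axis) of the 109 higher members (red circles) and 11 root markers (black triangles), with the line of equal levels in grey. In leaves 9 of the root markers are listed at 0 and the highest, LSI1, is at 3.66 RPM, while the higher members, which were chosen for their level in line 15 leaves, start at 10.9 RPM.

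Members were found on all 12 chromosomes, from 0.494% of the measured genes on chromosome 11 to 1.51% on chromosome 10, with 22 members on chromosome 3. Besides the runs and pairs described above, the neighbours Os02g0209300 and Os02g0209400, and Os05g0575000 and Os05g0576600, were members together. Neighbouring members were thus mostly copies of one family, as for the PR10, lipoxygenase, WRKY, peroxidase and hybrid proline-rich genes.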

How the data were processed

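Lasy-Seq libraries of 8 rice samples were taken from 1 table that the authors deposited, 1 column per sample matched by title. Its values are a normalized signal, reads per 1000000 (RPM) per the labels, and in the deposited table genes, ribosomal RNAs and spike-in controls each sum to 1000000 per column. The tools named, per the submitters' processing notes, are RSEM 1.2.21, Bowtie 1.2.3 and Trimmomatic 0.39, and the build is IRGSP-1.0; how each was set is not given in the sources used here. Names of genes come from the table, and a locus identifier gives chromosome and order.

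Differences were computed on log2(RPM + 1) with Python 3.11.15 (numpy 2.4.6, pandas 2.3.3, matplotlib 3.10.9), which understates changes of low genes. With 1 library a group no test was run. Members, lists, roles and tests were chosen with earlier results of these data known. Of 325 list symbols 278 were matched and 30 were ambiguous. The 1-read step was the most frequent value above 0; of values of genes totalling 200 to 600 reads, 9.50% to 12.2% lay within 0.1 of a whole read as deposited and 46.5% to 53.7% after the estimated deduction was added back. Named were OsbZIP83, the 15 members with the largest distance in each direction, up to 4 more per list, threshold neighbours, genes apart in roots and runs of neighbouring loci; the other genes were named after their values were seen, to account for every role. Alternatives changed the pseudocount, filter, fold, scaling and libraries. The rule and the scaling were checked on simulated data.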

Additional observations from a re-analysis of the deposited data

Results flagged for a closer look

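Of the 92 higher members whose root libraries averaged 5 RPM or more, 5 had line 15 below each other root library by at least 0.1 on the log2 scale. In leaves line 15 was above the others by the rule. Without the 0.1 cut, line 15 roots were below each other root library in 18 of the 92, beside 14.3% of all genes at 5 RPM in both tissues. The share of all genes at the 0.1 cut was not computed. The difference between the tissues was not tested. Under that floor in roots, the EL5 loci (-0.44), RCCR2 (-0.40) and Os02g0536500 (-0.29) also had line 15 roots below each other root library. Line 15 roots minus the nearest other root library was -0.32 for Os11g0160400 (22.5 RPM in line 15 leaves), -0.22 for Os02g0209400, -0.16 for OsVQ13, -0.14 for CHT8 and -0.14 for OsSDR110C-MS3. The distance of these 5 in leaves was 1.37 to 2.88. The rule asked for at least 2-fold in leaves and for nothing in roots, so the sizes in leaves and roots were not compared.

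The ribosomal RNA rows of the table were not part of the comparison. Chloroplast rRNA made up 74.7% of that class in line 15 leaves, against 73.2% in line 13, 74.5% in line 19 and 71.1% in NT leaves, so line 15 was the highest by a small margin.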

How the results depend on the processing

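No paired analysis was possible because each group is 1 library and no result comes from a test. No member changed direction in any alternative run. Another filter, fold or pseudocount, or leaving out a library, cannot reverse a member. Only the rescalings and the added-back reads could have done so. The 114 members became 72 (70 higher) with a pseudocount of 5 RPM, 219 (214 higher) with a filter at 1 RPM, 75 (72 higher) at 10 RPM, 269 (264 higher) with no filter, 238 (210 higher) at 1.5-fold and 41 (40 higher) at 3-fold; leaving out NT, line 13 or line 19 gave 144 to 205, and without line 19 leaves 172 were higher and 33 lower. Rescaling by a trimmed mean gave 115, of which 110 were shared, quantile normalization 112, and adding back the deducted reads 112, of which 107 were shared. The members under 2-fold then were RBBI3-1, JIOSPR10, AMT1;1, prx59, Os09g0437500, SL and CaMBP. Members also 2-fold apart in line 15 roots numbered 3 with a filter at 1 RPM, 4 with none and 0 at 3-fold, against 1 otherwise. The defence list held 7 to 12 members. Line 13 roots were highest in 48 of the higher members after trimmed-mean rescaling (24.8% of all genes). With a pseudocount of 5 RPM, genes apart numbered 13, 15 and 183 in leaves of line 13, line 19 and NT and 2, 25 and 5 in roots of lines 15, 13 and 19; with a filter at 1 RPM they numbered 50, 59 and 491 in those leaves and 11, 66, 17 and 274 in roots of line 15, line 13, line 19 and NT. Lower levels rest on few reads, and no replicate shows the spread within a line.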

Other observations

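Genes under the filter of 5 RPM added to the picture of line 15 leaves. Of 19928 such genes with a value above 0 in a leaf library, 155 (0.778%) were at least 2-fold above each other leaf library and 0 were 2-fold below. In a list of diterpenoid phytoalexin genes, which encode the enzymes for the antimicrobial momilactones and phytocassanes of rice, 17 of 18 were under the filter, and 6 of these 17 were 2-fold above. CYP71Z7 (Os02g0570700) had 10.7 RPM in line 15 leaves, 0.415 and 1.19 RPM in leaves of lines 13 and 19, and 0.0810 RPM in NT leaves. CYP76M7 (Os02g0569900), in the same gene cluster, had 7.17 RPM in line 15 leaves, 0.363 and 0.478 RPM in leaves of lines 13 and 19, and 0.0424 RPM in NT leaves. Summed over the list, line 15 leaves had 69.1 RPM, and the leaves of line 13, line 19 and NT had 34.98, 28.4 and 20.2 RPM. KO4, which is above the filter, gave 25.2 RPM of the sum in line 15 leaves and 20.9, 17.9 and 13.5 RPM in leaves of line 13, line 19 and NT. The synthase gene CPS2 of that pathway was at 6.10 RPM in line 15 leaves and 7.34 RPM in line 13 leaves. For CYP99A3, KS5, KS6 and PTC1, too, line 15 leaves were not the highest of the leaves.

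Among the defence genes under the filter, 3 of 4 were 2-fold above each other leaf library, beside 0.778% of the 19928 genes under it with a value above 0. They were the chitinase gene CHT3 (Os06g0726100), at 10.54 RPM in line 15 leaves against 0.231 and 0.314 RPM in lines 13 and 19 and a listed 0 in NT, WRKY70 at 10.4 RPM against 1.89, 1.62 and 3.16 RPM in line 13, line 19 and NT, and PR1A (Os07g0129200) at 1.88 RPM against a listed 0 in the other 3. PR1A had 1530.3 RPM in line 15 roots. Its leaf difference rests on a low value against values listed at 0, and levels with the deducted reads added back are not given for it. The remaining gene, CHT2, was listed at 0 in every leaf library and is not among those 19928.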
